A study of Homo sapiens with 48 samples.

Results

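H3K9me3 peaks annotated to promoters, but lying outside zinc finger genes, were examined in ASPC1, an established human pancreatic ductal adenocarcinoma cell line. Of the 63955 broad H3K9me3 peaks in the deposited list, 683 carried the promoter-TSS annotation, and 22 of those overlapped a gene whose symbol is ZNF followed by a number. The other 661 peaks (1.03% of all peaks) are the members described here. They overlapped, by at least 1 base, 805 genes of the deposited count table, 381 of them protein-coding and 424 for long non-coding RNA (lncRNA). The rule that set these 661 peaks and 805 genes used no expression value, but it was chosen with earlier results of these data known.

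The peaks come from CUT&RUN, an antibody-guided cleavage of chromatin, in ASPC1 cells carrying an inducible control hairpin (shCTRL) or a hairpin against ZNF274 (shZNF274), both induced with doxycycline at 1 µg/ml for 9 days, with 3 samples in each group. Expression was read from 12 RNA-seq libraries of ASPC1 in 4 groups of 3. The first pair of groups was transfected with a control siRNA (siCTRL) or an siRNA against ZNF274 (siZNF274), and the second pair received the solvent DMSO or 5 µM azacitidine (AZA). No RNA-seq library came from the hairpin cells and no peak list from the siRNA or AZA cells, so peaks and expression were set side by side across different cultures of 1 line.

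H3K9me3, trimethylation of lysine 9 of histone H3, marks silent chromatin and is placed largely by SETDB1, SUV39H1 and SUV39H2. KRAB zinc finger proteins such as ZNF274 bind DNA and, through TRIM28, bring SETDB1 to their sites, and ZNF274 is best known for marking the ends of zinc finger genes. Azacitidine traps DNA methyltransferases and lowers DNA methylation, a second mark that is often found where H3K9me3 is found.

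Totals ran from 31415743 to 39893151 counts per library. The epithelial markers EPCAM and KRT8 stood at 819 to 845 and 6948 to 7730 TMM-scaled counts per 1e6 (CPM) in DMSO, whereas KRT7 reached no more than 2.85 CPM. The leukocyte markers PTPRC and CD3E stayed at or below 0.0845 CPM, the endothelial marker CDH5 was at or near 0, CD14, CD68 and VWF stood at 0.741 to 1.30, 0.253 to 0.332 and 0.281 to 0.535 CPM in DMSO, and of the fibroblast markers PDGFRA was at or near 0 while LUM stood at 100 to 112 CPM. With AZA the fold was 1.52 for CD14, 1.99 for CD68 and 2.06 for VWF (adjusted p = 0.043, 0.033 and 0.014, edgeR quasi-likelihood test). With siZNF274 it was 1.65 for VWF and 1.14 for LUM (adjusted p = 0.046 and 0.011, same test), and CD14 and CD68 did not pass. Of 6 epithelial markers, 5 were called lower and 1, KRT7, higher in both comparisons. EPCAM had folds of 0.572 with siZNF274 and 0.580 with AZA, and KRT7 had 1.43 and 5.31. The part of these markers in the results below was not tested. ZNF274 itself had 17.6 ± 2.61 CPM (SD, n = 3) in siCTRL and 19.4 ± 2.93 CPM in the libraries labelled siZNF274, a fold of 1.11 (adjusted p = 0.305, edgeR quasi-likelihood test). Its mRNA was therefore not shown to be lower in those libraries, and directions below are those of the libraries as labelled.

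The sequences below are examples of promoters that lay under these peaks and of promoters that did not. Each is the 250 bases before a start site listed by RefSeq (build GRCh38.p14), written 5′ to 3′ on the gene's strand, and capitals mark CG dinucleotides, the bases that DNA methyltransferases act on. The first 3 belong to genes that changed in expression, and their windows lay wholly under a member peak. IGFN1 encodes a muscle protein with immunoglobulin and fibronectin domains (chr1:201190574-201190823, plus strand, peak chr1:201188932-201191599). IL37 encodes an anti-inflammatory cytokine of the interleukin-1 family (chr2:112910915-112911164, plus strand, peak chr2:112908249-112913617). C4BPA encodes the alpha chain of C4b-binding protein, an inhibitor of complement (chr1:207103983-207104232, plus strand, peak chr1:207098180-207108543).
IGFN1: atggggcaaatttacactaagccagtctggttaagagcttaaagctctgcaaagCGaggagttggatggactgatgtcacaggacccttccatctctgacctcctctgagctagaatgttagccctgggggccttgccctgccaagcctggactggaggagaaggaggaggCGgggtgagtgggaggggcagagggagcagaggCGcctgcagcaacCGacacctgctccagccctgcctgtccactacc
IL37: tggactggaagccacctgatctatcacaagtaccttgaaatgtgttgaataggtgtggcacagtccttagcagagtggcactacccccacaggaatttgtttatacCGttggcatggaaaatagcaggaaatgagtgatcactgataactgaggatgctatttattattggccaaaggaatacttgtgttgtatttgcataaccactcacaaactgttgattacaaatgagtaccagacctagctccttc
C4BPA: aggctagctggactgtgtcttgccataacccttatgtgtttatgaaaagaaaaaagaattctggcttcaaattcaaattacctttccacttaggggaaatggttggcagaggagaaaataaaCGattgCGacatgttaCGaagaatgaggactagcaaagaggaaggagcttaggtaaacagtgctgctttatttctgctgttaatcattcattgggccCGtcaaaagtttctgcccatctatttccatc
These 3 windows are poor in CG, with 4, 1 and 4 of them in 250 bases. The next 2 belong to genes with almost no RNA in any library. NEUROD1 is a neuronal and endocrine transcription factor (chr2:181680518-181680767, minus strand, peak chr2:181679713-181683484), with 24 CG dinucleotides. KIF2B encodes a mitotic kinesin (chr17:53822677-53822926, plus strand, peak chr17:53795297-53849035), with 12.
NEUROD1: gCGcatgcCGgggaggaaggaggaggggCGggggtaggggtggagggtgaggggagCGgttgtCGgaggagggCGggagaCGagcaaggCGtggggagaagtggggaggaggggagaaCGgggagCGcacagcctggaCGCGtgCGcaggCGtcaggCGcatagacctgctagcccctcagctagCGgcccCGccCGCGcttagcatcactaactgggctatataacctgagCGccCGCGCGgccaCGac
KIF2B: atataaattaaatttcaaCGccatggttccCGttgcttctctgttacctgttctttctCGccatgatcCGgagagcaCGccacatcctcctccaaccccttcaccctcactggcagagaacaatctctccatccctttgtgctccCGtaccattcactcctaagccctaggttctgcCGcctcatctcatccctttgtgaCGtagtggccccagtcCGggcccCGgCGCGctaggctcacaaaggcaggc
The last 3 are windows of expressed genes whose outermost start lay under a member peak while these listed starts did not. BCL7A, a subunit of the SWI/SNF chromatin remodelling complex (chr12:122021634-122021883, plus strand), has 38 CG dinucleotides, and GTPBP10, a GTPase of mitochondrial ribosome assembly (chr7:90346466-90346715, plus strand), has 23. SLCO2B1, an organic anion transporter (chr11:75150857-75151106, plus strand), has 2, so windows outside the peaks are not all rich in CG.
BCL7A: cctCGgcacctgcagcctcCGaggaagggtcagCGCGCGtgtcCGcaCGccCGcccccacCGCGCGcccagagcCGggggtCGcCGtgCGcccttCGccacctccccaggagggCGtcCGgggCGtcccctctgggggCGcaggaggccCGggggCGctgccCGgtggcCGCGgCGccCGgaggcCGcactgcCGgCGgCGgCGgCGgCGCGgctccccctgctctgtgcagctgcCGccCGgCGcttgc
GTPBP10: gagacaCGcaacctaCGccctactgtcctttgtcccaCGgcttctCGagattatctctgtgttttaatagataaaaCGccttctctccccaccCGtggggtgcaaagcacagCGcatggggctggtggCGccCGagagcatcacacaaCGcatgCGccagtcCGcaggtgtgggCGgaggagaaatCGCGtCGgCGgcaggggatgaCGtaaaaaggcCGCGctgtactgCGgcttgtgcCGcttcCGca
SLCO2B1: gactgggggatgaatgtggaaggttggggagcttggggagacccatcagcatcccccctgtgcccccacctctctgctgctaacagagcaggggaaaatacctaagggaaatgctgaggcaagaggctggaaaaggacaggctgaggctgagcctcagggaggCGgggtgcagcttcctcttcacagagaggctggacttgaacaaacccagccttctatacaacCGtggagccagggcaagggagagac

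Across the RefSeq table, 190 of 34943 start-site windows (300 bases, from 250 before to 50 after the start) lay wholly under a member peak. These 190 windows had a median of 2 CG dinucleotides per 100 bases, and all 34943 windows had 4.67. At least 5 per 100 bases were found in 27.9% of the windows under peaks and in 48.8% of all windows, and the median GC content was 51.3% and 58.7%. The letters TCCCGC, searched on both strands, occurred in 11.6% of the windows under peaks and 26.8% of all, and CCGGAA occurred in 7.90% and 17.2%. CACGTG occurred in 5.79% and 7.23%, and TATAAA in 11.6% of both. The IL37 and KIF2B windows are among those with TATAAA. The table holds no window on chromosome 8 and none for many genes elsewhere, so these shares describe the listed windows only, and a match of letters is not a binding site.

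The member peaks had a lower median width than the whole list. It was 2966 bases (quartiles 1502 and 5082), against 3633 bases over all peaks and 9682 bases for the 22 promoter peaks in zinc finger genes. The authors called 354 member peaks (53.6%) in both hairpin groups, 121 (18.3%) in shCTRL only and 186 (28.1%) in shZNF274 only. Over all peaks 64.3% were called in both and 13.7% in shCTRL only, the rest in shZNF274 only. Peaks called in both groups were wider, with a median of 4665.5 bases, than those called in shCTRL only (1680 bases) or shZNF274 only (1409.5 bases). These are descriptions of 1 deposited list, and the depth behind each peak is unknown.

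**Figure D1:**
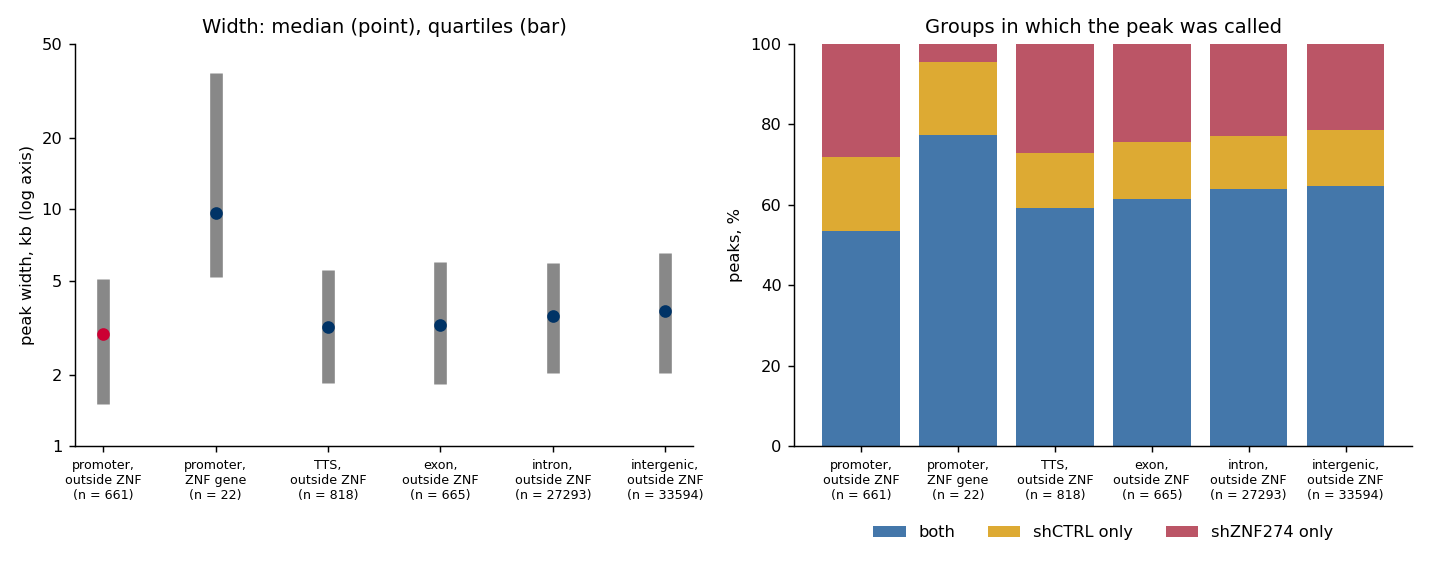
H3K9me3 peaks by the authors' annotation class, with the number of peaks under each name; TTS is the transcription termination site class. Left, the median (point) and quartiles (bar) of peak width in kilobases on a log axis, and right, the percentage of peaks called in both hairpin groups, in shCTRL only and in shZNF274 only; the 661 promoter peaks outside zinc finger genes had a median of 2966 bases and 53.6% were called in both groups.

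At the other end of the width range, 19 member peaks spanned at least 20000 bases, and all of the 9 widest were called in both groups. The widest, 212777 bases, lay inside PLCB1, a phospholipase C. A 109700-base peak covered 92.8% of MYOCD, the coactivator of smooth muscle genes, which had 0 counts in the 12 libraries. A 53739-base peak covered the whole of KIF2B, also at 0 counts, and a 102300-base peak covered 23.8% of GRIN2A, a glutamate receptor subunit with 7 counts in all 12 libraries together. By number, chromosome 2 held 80 member peaks and chromosome 1 held 62, whereas chromosome X held 6. Per 1000 peaks of any class on the chromosome these were 12.5, 13.4 and 1.82, and the highest rate was 19.4, on chromosome 22.

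The promoter label was checked against the gene ends in the count table. The centre of 330 member peaks (49.9%) lay within 1000 bases of either end of a gene, as did 47.6% of the peaks annotated to transcription termination sites and 28.4% of those annotated to exons, against 0.846% of those in introns. With the strand taken from RefSeq, 127 member peaks (19.2%) covered the outermost start site of 135 genes, 79 protein-coding and 56 lncRNA. Among termination-site peaks outside zinc finger genes 2.44% covered a start site. Strand was unknown for 409 of the 805 overlapped genes, so these counts of start sites are minimum counts. The 805 genes therefore include many that a member peak touched elsewhere than at the outermost start.

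Most genes under member peaks had too little RNA to test. Of the 805 overlapped genes, 224 (27.8%) passed the expression filter, against 43.9% of the 36843 genes in the table. Outside zinc finger genes, 369 of 1001 genes under termination-site peaks and 275 of 826 under exon peaks passed, also a lower share than over the table. Split by type, 172 of 381 protein-coding genes (45.1%) and 52 of 424 lncRNA genes (12.3%) under member peaks passed, against 64.7% and 19.3% over the table. Among genes with the outermost start site under a peak the shares were 25 of 79 (31.6%) and 3 of 56 (5.36%). Of the 581 overlapped genes that did not pass, 244 had 0 counts in all 12 libraries, which together allows a level of up to 0.00693 CPM (counting error only), and 337 had some counts. The 244 are 30.3% of the overlapped genes, close to the 26.7% of all genes in the table at 0 counts. By type the shares at 0 counts were 17.3% against 14.3% (protein-coding) and 42.0% against 41.3% (lncRNA).

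**Figure D2:**
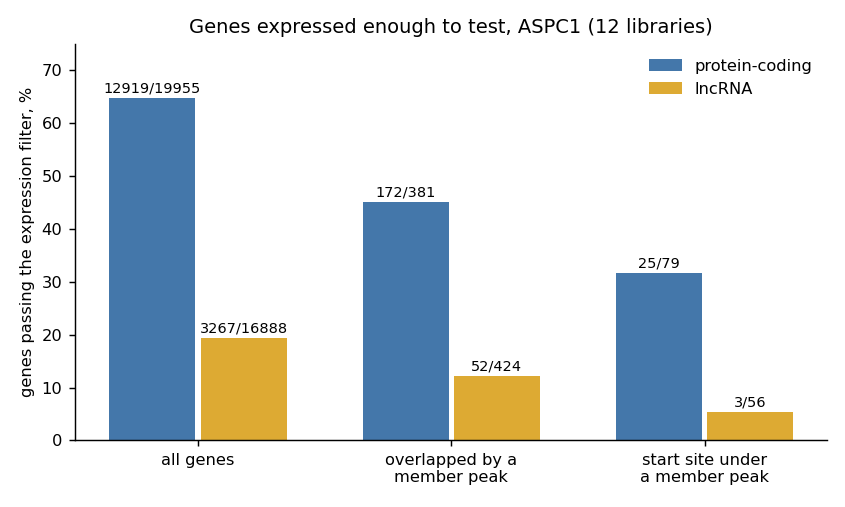
Percentage of genes that passed the expression filter in ASPC1 (12 libraries) for all genes, genes overlapped by a member peak and genes with the outermost start site under a member peak, split into protein-coding and lncRNA genes; the numbers above the bars are genes passing over genes in the group. Protein-coding genes went from 64.7% over the table to 45.1% and 31.6%.

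The silent genes with a start site under a member peak included regulators of other lineages. NKX2-1, a lung and thyroid factor, NKX6-1, an islet and neural factor, and DLX6, a craniofacial factor, had 0 counts in the 12 libraries. ZIC1 and ZIC4, neighbouring neural factors under 1 peak of 9994 bases, had 2 counts each. NEUROD1 had 4 counts, all of its non-zero libraries being labelled siZNF274. ESR1, the estrogen receptor alpha, had 1 count, GAD2, which makes the neurotransmitter GABA, had 1, and LRRTM1, a synaptic adhesion protein, had 0. ABCB1, the multidrug efflux pump P-glycoprotein, had 2 counts and was touched by 3 member peaks, all called in both hairpin groups. In all, 88 of the 135 genes had fewer than 10 counts in the 12 libraries together, and the share of all genes that low was not counted. At 0 counts were 31.9% of the 135 genes and 26.7% of all genes in the table.

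A minority were well expressed. In DMSO, 12 of the 135 genes had a mean of at least 10 CPM, 13 tested genes had a mean under 1 CPM, and the plot of the 28 tested genes shows few between. CPM is not divided by transcript length here, because the files give no exon lengths, so levels are compared between libraries and not between genes. CAST, the inhibitor of calpain proteases, had 193, 191 and 187 CPM in the 3 DMSO libraries. FAM107B had 140, 142 and 145 CPM, and NOS3, endothelial nitric oxide synthase, had 95.9, 103 and 97.9 CPM.

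In these expressed genes the peak rarely covered the start sites that RefSeq lists. For 9 of the 12 genes with at least 10 CPM no listed window touched a member peak, for 3 (FAM107B, BDNF and GRAMD1A) some did, and for 0 did all. CAST has 5 listed windows, none of them touched. For the 107 start-site genes that were not tested, all listed windows touched a member peak in 78, some in 10 and none in 19. For the 28 tested genes the numbers were 12, 4 and 12. The outermost start in the count table and the starts listed by RefSeq are thus often different positions in the expressed genes, and the files do not say which start was used. GNAS, an imprinted gene with several promoters, showed the same mixture outside the 135: 2 of its 6 listed windows lay wholly under member peaks, and it had 715, 713 and 692 CPM in DMSO.

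**Figure D3:**
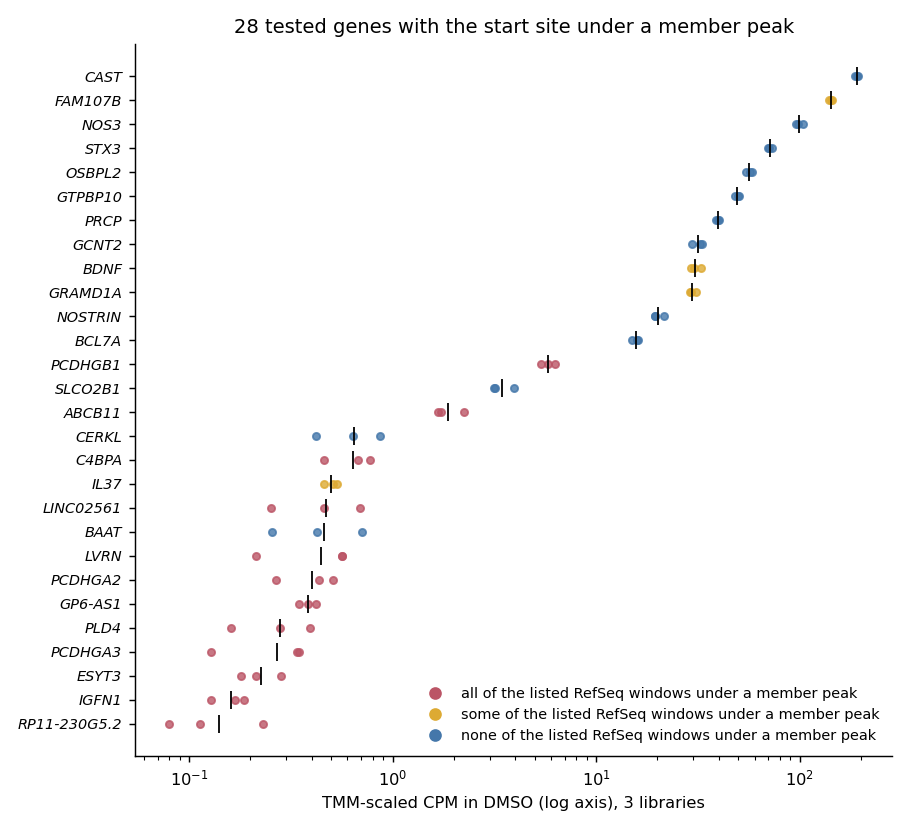
Expression in the 3 DMSO libraries (points; line, mean) of the 28 tested genes whose outermost start site lay under a member peak, on a log axis of TMM-scaled CPM. Colour gives whether all, some or none of the gene's listed RefSeq start-site windows touched a member peak; none of the 12 genes at 10 CPM or more had all windows touched.

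In the libraries labelled siZNF274 against siCTRL, genes under member peaks were called about as often as genes at large. Of the 224 tested genes, 47 (21.0%) were higher and 49 (21.9%) lower, against 21.5% and 24.2% of all 16186 tested genes (edgeR quasi-likelihood test, adjusted p under 0.05). Their median log2 fold change was 0.03, and that of all tested genes was -0.0002. At 2-fold or more, 11 were higher and 11 lower, where 3.77% and 2.61% of all tested genes were. Of the 28 tested genes with a start site under a peak, 4 were higher and 8 lower.

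IGFN1 rose most among the start-site genes. It had 0.492, 0.232 and 0.0983 CPM in siCTRL and 0.910, 0.828 and 1.27 CPM in siZNF274, so the groups did not overlap. The fold was 3.58 (log2 1.84 ± 0.36 SE, adjusted p = 0.0006, edgeR quasi-likelihood test), and it was 5.76 without siCTRL replicate 1. The peak over its start, 2668 bases wide, was called in shCTRL only. FAM107B had 189, 181 and 207 CPM in siCTRL and 242, 235 and 242 CPM in siZNF274, a fold of 1.25. STX3, a syntaxin of apical membranes, rose 1.19-fold. PRCP, a lysosomal carboxypeptidase, was 1.12-fold higher, a call that ended under 5 of 13 alternatives, with an adjusted p of up to 0.102 by edgeR's quasi-likelihood test without siCTRL replicate 1 and a call lost also without siZNF274 replicate 1 or 3.

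Among the 8 that fell, PCDHGB1 fell furthest of those with at least 1 CPM in the higher group. PCDHGB1 is a gamma protocadherin, 1 of the clustered cadherins of neuronal self-recognition. It had 5.76, 7.09 and 7.60 CPM in siCTRL and 3.34, 4.05 and 3.57 CPM in siZNF274, with no overlap. The fold was 0.535 (log2 -0.90 ± 0.13 SE, adjusted p = 3.7e-05, edgeR quasi-likelihood test). BCL7A had 15.2, 16.8 and 17.5 CPM in siCTRL and 9.44, 9.46 and 9.89 CPM in siZNF274, a fold of 0.583. NOSTRIN, a trafficking partner of NOS3, fell to 0.757 and NOS3 to 0.807 of the siCTRL level. CAST (0.783), GCNT2, the enzyme of I blood group branching (0.798), and GTPBP10 (0.836) also fell.

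C4BPA lay below that level and was picked out after its values were seen. It had 0.840, 0.670 and 0.983 CPM in siCTRL and 0, 0.191 and 0.0553 CPM in siZNF274, and no library of 1 group reached the other. The fold was 0.0968 (adjusted p = 6.8e-05, edgeR quasi-likelihood test), with folds from 0.0370 to 0.148 over 13 alternatives, the lowest without siZNF274 replicate 2. The 10364-base peak over its start was called in both hairpin groups. With AZA it had 1.03, 1.17 and 1.21 CPM against 0.460, 0.676 and 0.773 CPM in DMSO, and that difference did not pass (adjusted p = 0.063, edgeR quasi-likelihood test).

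Among genes that a member peak touched away from a known start, CNIH3 and CACNA1A rose and ABCG1 and PCNX2 fell. CACNA1A, a neuronal calcium channel subunit, had 4.84, 6.32 and 5.18 CPM in siCTRL and 10.8, 9.40 and 11.2 CPM in siZNF274, a fold of 1.92. CNIH3, an auxiliary protein of AMPA receptors, had 1.36, 2.06 and 1.64 CPM against 4.04, 3.95 and 4.15 CPM, a fold of 2.38. In both genes the lowest siZNF274 library was above the highest siCTRL library. LINC02614 was 1.87-fold higher, a call that ended without siZNF274 replicate 1 (adjusted p = 0.0587, edgeR quasi-likelihood test). ABCG1, a cholesterol exporter, had 47.2 to 64.8 CPM in the 3 siCTRL libraries and 18.3 to 21.6 CPM in siZNF274, a fold of 0.369. PCNX2 fell to 0.389 of the siCTRL level.

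The counts of calls also differed between the groups of peaks. Under the 121 member peaks called in shCTRL only, 15 of 36 tested genes (41.7%) were higher in siZNF274 and 6 (16.7%) lower. Under peaks called in both groups 18 of 127 were higher and 29 lower, and under peaks called in shZNF274 only 16 of 71 were higher and 16 lower. In genes with a mean of at least 10 CPM, 11 of 18 under shCTRL-only peaks were higher (61.1%), against 23.9% of all tested genes at that level. The difference between the peak groups was not tested, and the grouping was chosen after values were seen. The median log2 fold change of the 36 genes was 0.13. Of the shCTRL-only peaks over these 36 genes, the authors called that over ITGA1 Down and the others unchanged. ITGA1 itself was not called with siZNF274. Many of these peaks lay away from a known start and covered little of the gene, such as 0.612% of MORC4 and 0.212% of KSR1. MORC4 and TBC1D8B lay under the same peak.

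Most of those 15 rises were small, and the genes named in this paragraph were picked after their values were seen. MORC4, a member of the MORC ATPase family, had 90.7, 86.1 and 87.8 CPM in siCTRL and 138, 135 and 133 CPM in siZNF274, a fold of 1.53 (adjusted p = 2.9e-08, edgeR quasi-likelihood test). KSR1, a scaffold of the RAF-MEK-ERK cascade, rose 1.24-fold, TMEM30A, a subunit of phospholipid flippases, 1.17-fold, and GNG4, a G protein gamma subunit, 1.15-fold. TNNT2, cardiac troponin T, rose 2.78-fold from a low level, with 0.232, 0.155 and 0.262 CPM in siCTRL and 0.642, 0.510 and 0.636 CPM in siZNF274. The 6 that fell included PADI1, an enzyme that converts arginine to citrulline in proteins (0.520 of the siCTRL level). ASAH1 (0.818) and MGLL, enzymes of lipid breakdown, fell less, and the call for MGLL (0.826) ended without siCTRL replicate 3 (adjusted p = 0.0545, edgeR quasi-likelihood test).

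**Figure D4:**
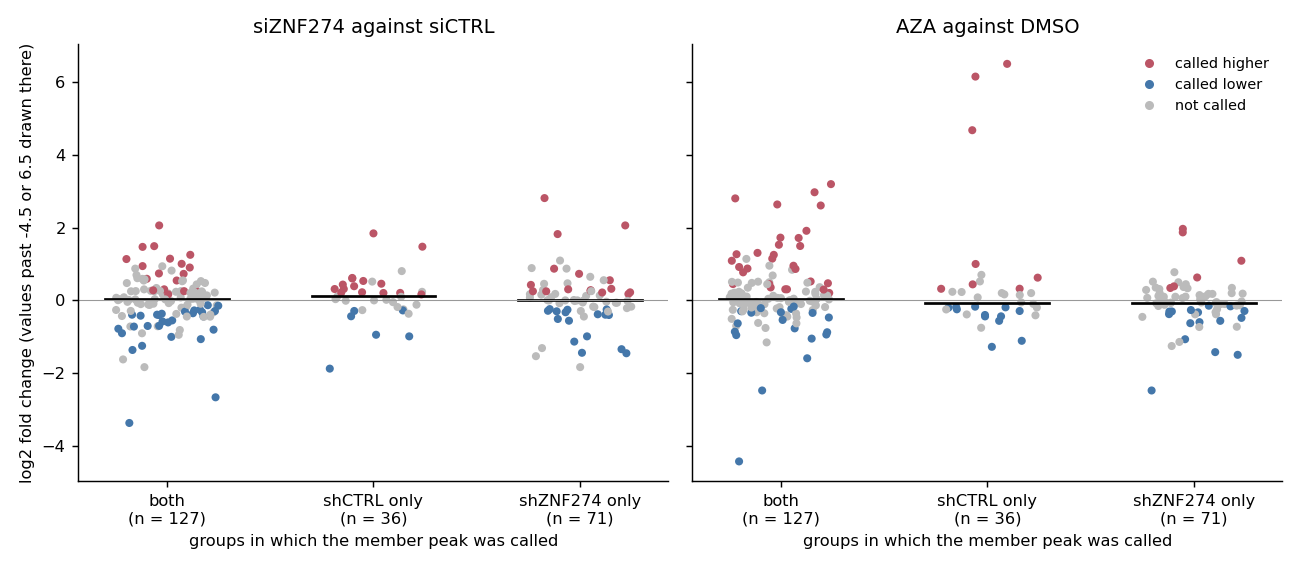
Log2 fold change of each tested gene under a member peak (points; line, median), by the hairpin groups in which the peak was called, for siZNF274 against siCTRL (left) and AZA against DMSO (right). A gene under peaks of several kinds appears in each, values past the axis are drawn at its end, and colours mark genes called higher or lower; under shCTRL-only peaks 15 of 36 genes were called higher and 6 lower with siZNF274, and 8 higher and 12 lower with AZA.

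With AZA against DMSO the number of calls was again close to the background, and the 2-fold rises made up a larger share than over all tested genes. Of the 224 tested genes, 42 (18.8%) were higher and 46 (20.5%) lower, against 17.2% and 18.6% of all tested genes (edgeR quasi-likelihood test, adjusted p under 0.05). The median log2 fold change was -0.04. At 2-fold or more, 21 of 224 were higher and 9 lower, where 3.45% and 1.83% of all tested genes were. The 21 fell to 8 when genes needed at least 1 CPM in 3 libraries. Of 81 tested genes under member peaks with a mean under 1 CPM, 16 rose at least 2-fold (19.8%), against 10.6% of all tested genes at that level. Some genes this low pass the expression filter through the group where they are high, so the 2-fold counts are descriptions.

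IGFN1 again led the start-site genes. It went from 0.128, 0.169 and 0.186 CPM in DMSO to 4.15, 4.84 and 3.59 CPM in AZA, a fold of 25.6 (log2 4.68 ± 0.33 SE, adjusted p = 2.9e-08, edgeR quasi-likelihood test). IL37 went from 0.460, 0.507 and 0.533 CPM to 2.00, 1.64 and 1.32 CPM, a fold of 3.28 (adjusted p = 0.00023, same test). In both, every AZA library was above every DMSO library. NOS3 had 95.9, 103 and 97.9 CPM in DMSO and 127, 139 and 139 CPM in AZA, a fold of 1.37, and FAM107B rose 1.31-fold. ABCB11, the bile salt export pump, was 1.39-fold higher. That call ended without AZA replicate 1 or 2 or DMSO replicate 2 or 3, with an adjusted p of up to 0.0992 by edgeR's quasi-likelihood test.

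SLCO2B1 fell most with AZA among the start-site genes. It had 3.96, 3.15 and 3.20 CPM in DMSO and 1.00, 0.963 and 1.68 CPM in AZA, a fold of 0.355 (adjusted p = 2.0e-05, edgeR quasi-likelihood test). PCDHGB1 fell from 6.26, 5.83 and 5.36 CPM to 2.78, 3.28 and 3.54 CPM, a fold of 0.551. STX3 fell to 0.689 and GCNT2 to 0.770 of the DMSO level. PRCP (0.881), BCL7A (0.851), GTPBP10 (0.886) and GRAMD1A, a sterol transfer protein (0.876), were also called lower, but leaving out 1 library ended each of these calls. By edgeR's quasi-likelihood test the adjusted p then reached 0.0751 for PRCP (without DMSO replicate 2, and lost also without AZA replicate 3) and 0.0854 for BCL7A (without AZA replicate 2, and lost also without AZA replicate 1 or DMSO replicate 1 or 3). It reached 0.0531 for GTPBP10 (without DMSO replicate 2, and lost also without AZA replicate 3) and 0.130 for GRAMD1A (without AZA replicate 1, and lost also without AZA replicate 2 or DMSO replicate 2 or 3).

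**Figure D5:**
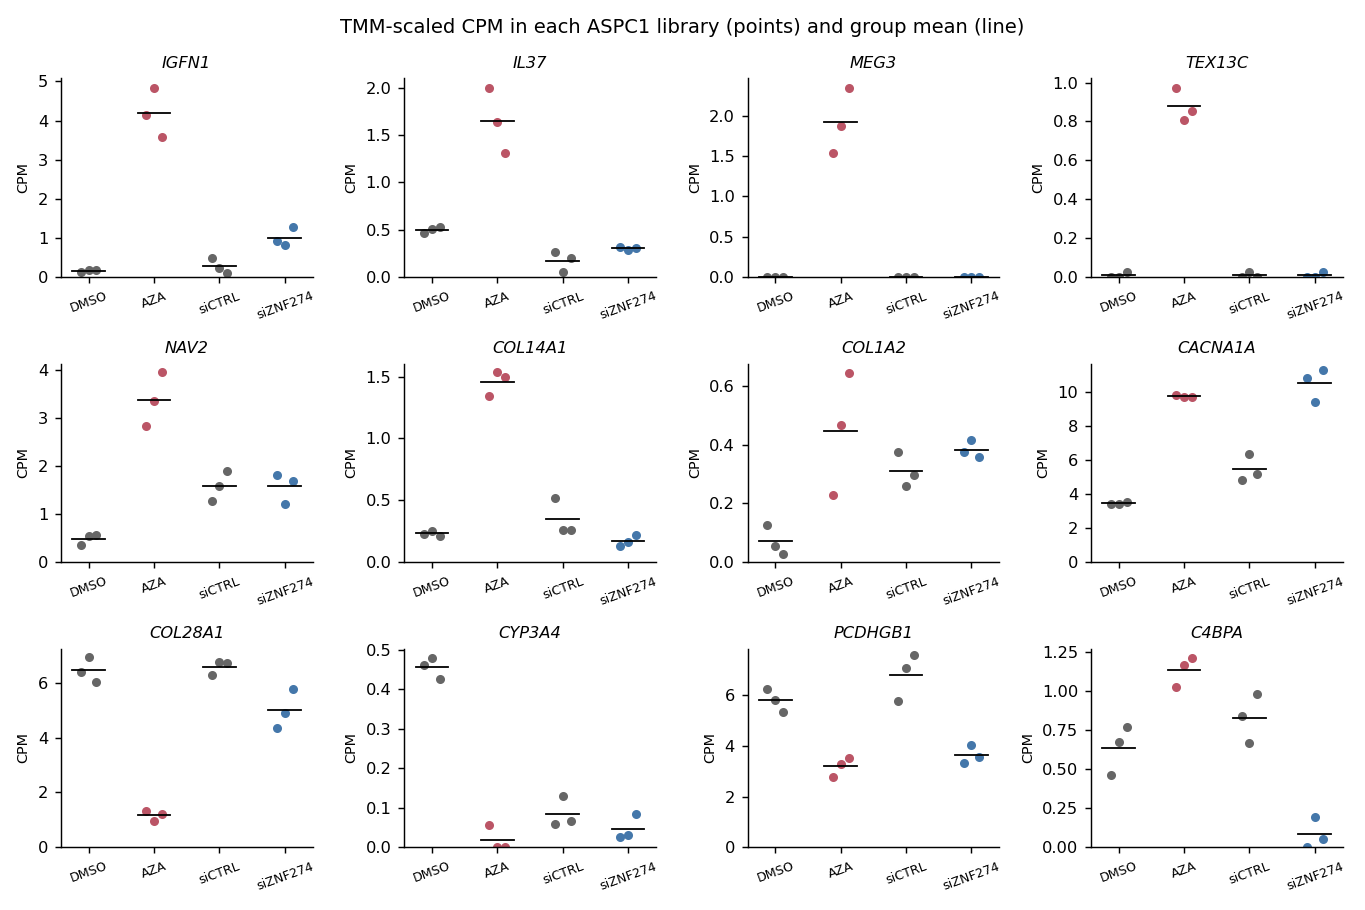
TMM-scaled CPM of 12 genes under member peaks in each ASPC1 library (points) with the group mean (line), on linear axes that start at 0. MEG3 and TEX13C were at or near 0 in every group but AZA, COL28A1 was lowest in AZA, and C4BPA was lowest in the libraries labelled siZNF274.

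Among genes with no known start under a member peak, RNA from MEG3 was counted in the AZA libraries alone. MEG3, an imprinted lncRNA of chromosome 14, had counts of 54, 72 and 91 in the AZA libraries and 0 in each of the other 9 libraries. Against the floor of 3 counts per DMSO library it was at least 23.9-fold higher (adjusted p = 4.6e-06, edgeR quasi-likelihood test). Its member peak, 1643 bases wide and called in shCTRL only, lay inside the gene. TEX13C, a testis-expressed gene picked out after its values were seen, had counts of 34, 31 and 33 in AZA and of 0, 0 and 1 in DMSO (adjusted p = 1.8e-06, same test). Its peak was also called in shCTRL only and covered an end of the gene, whose strand was unknown, so that end may be its start. MEG3 and TEX13C passed the expression filter only through the AZA libraries, so their adjusted p-values are descriptions and not support.

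NAV2, a neuronal navigator protein, and the collagen COL14A1 rose with AZA. NAV2 went from 0.358, 0.535 and 0.559 CPM in DMSO to 2.83, 3.36 and 3.95 CPM, a fold of 6.98, while both siRNA groups stood between, at 1.21 to 1.90 CPM. COL14A1 went from 0.230, 0.253 and 0.213 CPM to between 1.34 and 1.54 CPM in the 3 AZA libraries, a fold of 6.22. COL14A1 also passed the expression filter only through the AZA libraries, so this fold is a description. With siZNF274 it was called lower (fold 0.499, adjusted p = 0.0455, edgeR quasi-likelihood test), a call that ended under 7 of 12 alternatives. COL1A2, a type I collagen gene and fibroblast marker with 2 member peaks, had 0.128, 0.0563 and 0.0266 CPM in DMSO. In AZA it had 0.229, 0.468 and 0.645 CPM, a fold of 6.10 that was 10.2 without DMSO replicate 1. Its siCTRL libraries, at 0.376, 0.258 and 0.295 CPM, and its siZNF274 libraries, at 0.375, 0.414 and 0.359 CPM, lay within the AZA range. A member peak covered an end of COL1A2, whose strand was unknown, so that end may be its start. The other fibroblast markers did not pass: COL1A1 had a fold of 0.963 and LUM 0.964, DCN and PDGFRA were too low to test, and their part in the result was not tested. PDE2A, a cyclic nucleotide phosphodiesterase picked out after its values were seen, was 9.16-fold higher with AZA.

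Of the other overlapped genes with at least 1 CPM in DMSO, COL28A1, a collagen gene with 2 member peaks, fell most. It had 6.42, 6.96 and 6.05 CPM in DMSO and 1.32, 0.963 and 1.21 CPM in AZA, a fold of 0.180 (adjusted p = 3.3e-09, edgeR quasi-likelihood test). FADS2, a fatty acid desaturase, fell from 145, 145 and 154 CPM to 48.9, 61.5 and 55.2 CPM, a fold of 0.373. It was 1.22-fold higher in siZNF274.

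Both comparisons have their own controls. Of the 224 genes, 14 were called higher in both, 19 lower in both, 21 in opposite directions and 94 in neither. Over all 16186 tested genes these numbers were 1125, 1399, 849 and 6363. IGFN1, CACNA1A, CNIH3, FAM107B and MORC4 were higher in both. PCDHGB1, COL28A1 and GCNT2 were lower in both, and the call for COL28A1 with siZNF274 (fold 0.762) ended without siZNF274 replicate 1 (adjusted p = 0.0737, edgeR quasi-likelihood test). Under shCTRL-only peaks 12 of 36 genes were lower with AZA and 8 higher, and at 10 CPM or more 10 of 18 were lower, where 25.5% of all tested genes at that level were.

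Gene families are given by their counts, where 805 of 36843 genes in the table were overlapped. Of 53 clustered protocadherin genes 19 were overlapped by member peaks, 5 of them at a known outermost start, and 4 of the 19 were tested. The 19 include PCDHA1 to PCDHA13. As 1 member peak overlapped as many as 13 genes, the 19 genes are not 19 separate peaks. A single peak of 16316 bases, chr5:141335302-141351617, covered the outermost starts of PCDHGA2, PCDHGA3 and PCDHGB1, with PCDHGA1 starting upstream of it. Of these 4 genes only PCDHGB1 was called, lower in both comparisons. The gamma genes share their last exons and overlap 24 other genes of the table, so their counts are uncertain. Of 148 germline and cancer-testis genes 4 were overlapped, CTAGE1, MAGEC3, PRDM9 and TEX15. TEX15 alone was tested, with a fold of 1.54 with AZA (adjusted p = 0.022, edgeR quasi-likelihood test), a call that ended without AZA replicate 1 or 2 or DMSO replicate 3 (adjusted p up to 0.0901, same test).

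Of 59 entries in a list of drug-metabolising enzymes 7 were under member peaks, 5 of them tested, and 3 fell with AZA, where 18.6% of all tested genes did. The 7 include the antisense lncRNA CYP1B1-AS1, and CYP3A7-CYP3A51P, which overlaps CYP3A7. CYP1B1 and CYP1B1-AS1, both tested, lay under the same peak. Over the whole list 12 of 23 tested members were lower with AZA and 2 higher, with a median log2 fold change of -0.31. CYP3A5 had 284, 258 and 244 CPM in DMSO and 210, 171 and 186 CPM in AZA, a fold of 0.722. CYP3A7 had 0.665, 0.563 and 0.719 CPM against 0.143, 0.260 and 0.232 CPM. CYP3A4 had 0.460, 0.479 and 0.426 CPM in DMSO and 0.0572, 0 and 0 CPM in AZA, where the counts are too few for a firm fold. In all 3 genes the DMSO and AZA groups did not overlap. CYP3A7 and CYP3A4 passed the expression filter only through the DMSO libraries, where they were highest, so their falls are descriptions. The siCTRL libraries also lay below every DMSO library in each gene. They had 165, 133 and 148 CPM for CYP3A5, 0.261, 0.180 and 0.295 for CYP3A7, and 0.0579, 0.129 and 0.0655 for CYP3A4. The difference between the 2 control groups was not tested. The 3 genes are close paralogs in 1 cluster, and reads could be split between them. With siZNF274 CYP3A5 had a fold of 1.11 that did not pass (adjusted p = 0.13, edgeR quasi-likelihood test).

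Of the overlapped olfactory receptors (5 of 392) and keratin and keratin-associated genes (4 of 152), 0 were expressed enough to test. Of 215 entries in a list of homeobox, SOX, FOX, GATA and T-box genes, which includes antisense and overlapping transcripts and leaves out DLX6, 8 were overlapped, and TBX4 alone was tested and not called. Among zinc finger genes under names other than ZNF, 5 of 129 were overlapped, and the 2 tested, ZFP62 and ZFP69B, were not called in either comparison. ZFP69B would be called higher with siZNF274 under upper quartile scaling (adjusted p = 0.0385, edgeR quasi-likelihood test) and with a minimum of 1 CPM in 3 libraries (adjusted p = 0.0467, same test). Member peaks overlapped 0 of 22 genes of the H3K9 methylation machinery and 0 of 39 interferon-stimulated genes.

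The authors' own comparison of shZNF274 with shCTRL called 10 member peaks Down and 5 Up and left 646 unchanged. That is 1.51% and 0.756% of member peaks, against 0.640% and 0.383% of all peaks in the authors' deposited table. Outside zinc finger genes, 1.83% of termination-site peaks were Down and 0.122% Up, and 2.11% of exon peaks were Down and 0.752% Up. A higher share of Down calls than over all peaks was thus not particular to member peaks. Among the 22 promoter peaks in zinc finger genes 4 were Down. Of the 10 Down peaks 8 were called in shCTRL only, and the 5 Up peaks were all called in shZNF274 only. The Down peaks touched ITGA1, an integrin subunit, MIRLET7A1HG, the host of a let-7 microRNA, and genes too low to test such as SLCO1A2, RIMBP2 and PANTR1. The Up peaks touched MIR9-1HG, the host of a miR-9 gene.

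The 3 tested genes under changed peaks were not called. ITGA1 had 0.232, 0.180 and 0.164 CPM in siCTRL and 0.294, 0.319 and 0.221 CPM in siZNF274, a fold of 1.43 (adjusted p = 0.370, edgeR quasi-likelihood test). MIRLET7A1HG had a fold of 1.19 (adjusted p = 0.127, same test). MIR9-1HG, under an Up peak, had a fold of 1.57 (adjusted p = 0.234, same test).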

How the data were processed

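For RNA-seq the authors deposited raw whole-number counts per gene, made per the submitters' processing notes with STAR 2.7.10b on hg38 from ribosome-depleted, stranded libraries per the labels. The tool that assigned reads to genes, its strandedness and the annotation version were not given in the sources used here. Genes that overlap others are therefore uncertain; 12 of 41 named genes overlap no other gene of the table. The deposited peak list gives positions, calling groups, annotation, the authors' change call and a score that is the same in all peaks. The notes name Bowtie2, MACS2, HOMER, featureCounts and edgeR without versions, and do not tell whether the peak caller ran on single or pooled samples. Coverage per sample was not analysed here.

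Gene bodies of the count table were overlapped with peaks by at least 1 base. Strand came from RefSeq start-site windows (GRCh38.p14), matched for 396 of 805 genes. All 12 ASPC1 libraries were fitted together with edgeR 4.0.16 in R 4.3.3 (filterByExpr on group, TMM scaling, quasi-likelihood test, Benjamini-Hochberg adjustment at 0.05 over 16186 genes), after tests on simulated data. Levels are TMM-scaled CPM, with no division by length. The labels do not say whether replicates were separate cultures, so p-values may reflect technical spread only. Between libraries of a group the chi-square per gene ran from 4.13 to 24.6, far above sampling noise, so each library counts as 1 replicate.

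Named genes were, per comparison, those with a start site under a member peak, an adjusted p under 0.05, at least 1 CPM in the higher group and no overlap between groups, up to 12 each way. To these were added the 3 largest changes each way among the other overlapped genes, the 8 start-site genes highest in DMSO, and tested members of the gene lists. A gene that the rule also named is not reported here. The members and lists were chosen with earlier results of these data known. Lists also held 63 transcripts named after zinc finger genes (1 overlapped, ZNF503-AS1, not tested) and 33 leukocyte receptor genes (0 overlapped). Of 28 imprinted genes 3 were overlapped, GNAS, GNAS-AS1 and MEG3.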

Additional observations from a re-analysis of the deposited data

How the results depend on the processing

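Taking only peaks called in both hairpin groups left 354 of the 661 member peaks, and taking only those of at least 2000 bases left 433. With siZNF274 the 47 higher and 49 lower genes became 4 and 8 for genes with a start site under a peak, 18 and 29 for peaks called in both groups, and 26 and 31 for peaks of at least 2000 bases. With AZA the 42 higher and 46 lower became 6 and 8 for start-site genes, 29 and 20 for peaks called in both groups, and 33 and 26 for peaks of at least 2000 bases, so the latter subsets held more higher than lower calls. These are smaller sets of genes. Requiring at least 50% of the gene body left 86 genes with 5 tested and 0 called in either direction of either comparison by edgeR's quasi-likelihood test. At an unadjusted p under 0.05 there was 1 with siZNF274 and 0 with AZA, and DESeq2 1.42.0 called 0 in both. The 2-fold rises with AZA fell from 21 to 8 with a minimum of 1 CPM in 3 libraries. The other alternatives (DESeq2, other scalings, no filter, only the groups compared) moved none of the 4 counts of calls by over 1.5 times, and no named gene that was called changed direction. Upper quartile scaling changed the split of all tested genes to 4221 higher and 3195 lower with siZNF274 and to 3348 and 2544 with AZA. Leaving out 1 library at a time gave 32 to 47 higher and 44 to 48 lower with siZNF274, and 36 to 45 and 37 to 43 with AZA.

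A replicate block gave 49 higher and 51 lower with siZNF274, and 45 and 46 with AZA. The numbers were not taken to pair the samples, since deviations of same-numbered libraries correlated at 0.0876, 0.0648 and 0.144 with siZNF274 and at 0.0208, 0.0446 and 0.117 with AZA. With siZNF274 every library correlated best with its own number, a hint from the data only, and with AZA this was not so.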

Other observations

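Several genes were chosen after their values were seen. Of these, C4BPA, TEX13C, PDE2A and TNNT2 had a mean below 1 CPM in the higher group wherever they were called. MORC4, KSR1, TMEM30A, GNG4, PADI1, ASAH1 and MGLL were chosen in the same way and stood higher. PDE2A had 0.0290, 0.258 and 0.295 CPM in siCTRL and 0.294, 0.733 and 0.636 CPM in siZNF274, a fold of 2.81 (adjusted p = 0.0228, edgeR quasi-likelihood test). That call ended without siZNF274 replicate 2 or 3 or siCTRL replicate 1, with an adjusted p of up to 0.0934 by the same test. Of the genes under the widest member peaks, PLCB1 had a fold of 0.607 with siZNF274 (adjusted p = 0.00142, edgeR quasi-likelihood test) and MYO10, an unconventional myosin with 46.2% of its body under a 149892-base peak, had 0.616 (adjusted p = 0.000188, same test). With AZA neither passed (adjusted p = 0.257 and 0.175, same test). The rule for named genes did not pick PLCB1 or MYO10.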
